A study of Mus musculus with 12 samples.

Results

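Klk1, Slc27a2, Dnah8 and Hmces were examined as 4 genes whose RNA was among the most strongly lowered by RA (read here as retinoic acid) in mouse embryonic stem cells, out of 22180 named genes on the arrays. They had been picked for the size of their falls with RA, so those falls are given below as a description without a test. The cells were E14, a line of mouse embryonic stem cells, transduced with a short hairpin RNA against LOXL2 (shLOXL2) or with a control hairpin (shCT). The 4 groups, of 3 arrays each, were shLOXL2 cells with RA at day 1, shLOXL2 cells without RA at day 0, shCT cells with RA at day 1 and shCT cells without RA at day 0. There was no untreated group at day 1, so every difference with RA also holds 1 day of culture. The hairpin sequences, the number of clones and the RA dose are not given in the sources used here. The labels also do not state that replicate arrays stem from different cultures, so the spread behind each p-value may be technical.

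The genes belong to unrelated pathways. Klk1 encodes tissue kallikrein, a secreted serine protease that cuts kininogen to release kinins, which act on the bradykinin receptors. Slc27a2 encodes FATP2, a protein of the endoplasmic reticulum and peroxisome that takes up long-chain fatty acids and couples very long-chain fatty acids to coenzyme A. Dnah8 encodes an axonemal dynein heavy chain, a motor of the outer arms of sperm flagella and cilia. Hmces encodes a DNA-protein crosslinker that covers abasic sites in single-stranded DNA, and it was named for binding 5-hydroxymethylcytosine in embryonic stem cell extracts. Retinoic acid acts through nuclear receptors that bind repeats of the half-site AGGTCA, and it drives embryonic stem cells out of the pluripotent state.

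The start regions of the genes are shown because 2 later results turn on them, the letters that the regions do and do not share and a neighbour that starts beside Dnah8. Each window runs from 250 bases before to 50 bases after the annotated start, in RefSeq of build GRCm38.p6, 5′ to 3′ on the gene's strand. In the windows of Klk1 (chr7:44225110-44225409, plus strand), Slc27a2 (chr2:126552774-126553073, plus strand) and Hmces (chr6:87913726-87914025, plus strand), capitals mark AGGTCA and the GC box GGGCGG on either strand.
Klk1: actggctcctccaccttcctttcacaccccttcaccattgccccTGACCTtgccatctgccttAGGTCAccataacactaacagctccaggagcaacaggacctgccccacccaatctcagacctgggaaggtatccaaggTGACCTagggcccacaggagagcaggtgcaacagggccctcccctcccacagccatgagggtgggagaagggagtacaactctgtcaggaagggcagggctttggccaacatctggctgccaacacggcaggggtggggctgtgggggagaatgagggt
Slc27a2: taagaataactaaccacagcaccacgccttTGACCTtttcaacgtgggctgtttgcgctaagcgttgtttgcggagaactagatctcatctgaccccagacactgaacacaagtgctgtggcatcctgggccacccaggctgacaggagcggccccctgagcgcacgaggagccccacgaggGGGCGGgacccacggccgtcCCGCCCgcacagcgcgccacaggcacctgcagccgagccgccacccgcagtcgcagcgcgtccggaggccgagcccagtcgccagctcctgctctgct
Hmces: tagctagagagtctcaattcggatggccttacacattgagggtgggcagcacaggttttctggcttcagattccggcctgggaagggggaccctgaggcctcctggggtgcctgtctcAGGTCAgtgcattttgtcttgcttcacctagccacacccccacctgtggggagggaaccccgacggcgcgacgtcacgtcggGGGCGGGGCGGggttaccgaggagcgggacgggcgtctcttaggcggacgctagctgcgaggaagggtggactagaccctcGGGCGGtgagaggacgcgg
In the windows of Dnah8 (chr17:30626686-30626985, plus strand) and of the long noncoding RNA gene 1700097N02Rik (chr17:30626856-30627155, minus strand), capitals mark the 130 bases that both windows hold, each read on its own strand.
Dnah8: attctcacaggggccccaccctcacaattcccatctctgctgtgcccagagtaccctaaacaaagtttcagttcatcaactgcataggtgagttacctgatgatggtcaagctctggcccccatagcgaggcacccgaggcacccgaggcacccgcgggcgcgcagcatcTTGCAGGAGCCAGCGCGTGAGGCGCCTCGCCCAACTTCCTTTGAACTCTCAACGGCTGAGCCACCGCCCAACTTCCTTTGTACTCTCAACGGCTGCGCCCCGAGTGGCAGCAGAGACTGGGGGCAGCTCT
1700097N02Rik: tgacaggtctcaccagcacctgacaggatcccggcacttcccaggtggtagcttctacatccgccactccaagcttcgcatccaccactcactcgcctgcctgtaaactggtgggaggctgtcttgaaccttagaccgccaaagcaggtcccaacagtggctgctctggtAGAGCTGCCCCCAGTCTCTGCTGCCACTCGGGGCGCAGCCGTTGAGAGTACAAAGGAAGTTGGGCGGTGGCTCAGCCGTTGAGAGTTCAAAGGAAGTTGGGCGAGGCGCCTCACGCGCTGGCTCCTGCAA

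The windows were searched for short motifs. AGGTCA, counted on both strands, was present in the windows of Klk1, Slc27a2 and Hmces and not in that of Dnah8, and 14.7% of 21262 windows of protein-coding genes held it. The Klk1 window held 3 copies, and 0.0941% of the windows of coding genes held at least 3. From the start, they began at -206 and -109 on the other strand and at -187 on the gene strand. Many nuclear receptors besides those of retinoic acid use AGGTCA. The longer AAGGTCA, which contains AGGTCA, was found in the Klk1 and Slc27a2 windows and in 4.08% of coding windows. The GC box was present in the windows of Slc27a2, Dnah8 and Hmces, against 46.2% of coding windows, and CCAAT in that of Klk1 only, against 38.2%. TATAAA, searched on both strands, was in none of the 4, against 12.6% of coding windows. The E-box CACGTG was likewise absent from these 4 windows and was present in 7.84% of coding windows. The octamer ATGCAAAT was in none of them and in 1.66% of coding windows. Klk1 also stood apart in its CG pairs: it had 1 in 300 bases, an observed-to-expected ratio of 0.0372, against 25 in the Slc27a2 window (0.793), 16 in the Dnah8 window (0.602) and 22 in the Hmces window (0.733), with a median ratio of 0.567 over coding windows. These motifs were chosen after the windows had been read, and a match is a description of letters, not of a bound site.

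The arrays gave log2 signals for 41345 transcript clusters (the probe sets that stand for a gene), with array medians between 4.58 and 4.68. Both clusters annotated to Loxl2 are shared with the predicted gene Gm21451. In the brighter one, cluster 17301634, the shLOXL2 arrays lay at 5.10 to 5.30 and the shCT arrays at 5.85 to 6.51 with RA, and at 4.79 to 5.06 and 5.17 to 5.71 without RA, so the groups did not overlap, and on average the shLOXL2 signal was 60.0% of the shCT signal. In the other cluster it was 65.0%, and the groups without RA overlapped. Of 8 markers of embryonic stem cells, all lay above the gene median in every group, and their mean per array was 8.50 to 8.68 in shLOXL2 and 8.55 to 8.69 in shCT cells with RA, against 9.03 to 9.06 in shLOXL2 and 8.93 to 9.12 in shCT cells without RA. The mean of 6 markers of primitive endoderm was 6.66 to 6.73 with and 5.88 to 6.0 without RA in shLOXL2 cells, and 6.30 to 7.13 with and 5.79 to 6.92 without RA in shCT cells. The mean of 5 markers of neural progenitors was 5.59 to 5.86 with and 5.30 to 5.51 without RA in shLOXL2 cells, and 5.80 to 6.08 with and 5.30 to 5.55 without RA in shCT cells. The mean of 6 trophectoderm markers was 5.36 to 5.48 with and 5.06 to 5.33 without RA in shLOXL2 cells, and 5.36 to 5.55 with and 5.04 to 5.29 without RA in shCT cells. The mean of 6 fibroblast markers stayed between 4.09 and 4.62 on all arrays, and no background level was set that would show absence. On every array the stem cell mean was thus lower with RA, in both constructs, while the neural and trophectoderm means were higher with RA in both. Not every marker followed its list. The stem cell marker Nanog averaged higher with RA in shCT cells. The neural marker Hes5 averaged lower with RA in shLOXL2 cells. The trophectoderm marker Elf5 averaged lower with RA in shLOXL2 cells (3.77 against 4.01) and, barely, in shCT cells (3.9 against 3.92). The endoderm mean was higher with RA in shLOXL2 and overlapped in shCT. The part of these lists in the falls was not tested. In such bulk samples fewer cells of a type and less RNA per cell cannot be told apart. Replicate 3 of both shCT groups and replicate 1 of both shLOXL2 groups, 1 array of each group, lay together at 1 end of the main axis of variation within groups, which held 49.4% of that variation. Results are therefore also given without these 4 arrays.

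Klk1 had the largest fall of all 22180 genes in both constructs. Its log2 signals were 3.13, 2.79 and 2.75 in shLOXL2 cells with RA, against 6.20, 6.33 and 6.27 without RA. In shCT cells they were 3.31, 2.79 and 3.48 with RA, against 5.43, 5.76 and 5.77 without RA. The arrays with and without RA did not overlap, and 3.08 log2 units separated the nearest of them in shLOXL2 and 1.95 in shCT. The log2 change was -3.38 ± 0.18 in shLOXL2 and -2.46 ± 0.18 in shCT (SE, n = 3 per group), so that 9.62% and 18.2% of the day 0 signal was left. With RA, Klk1 lay between percentiles 9.7 and 22.4 of all clusters of its array, where part of a signal can be background. Klk1 has close relatives in the Klk1b genes, and the probe sequences were not used here, so signal shared with them cannot be told apart.

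Slc27a2 had the next largest fall in both constructs, of nearly the same size in each. Its log2 signals were 5.30, 4.84 and 4.75 in shLOXL2 cells with RA, against 7.50, 7.17 and 7.21 without RA. In shCT cells they were 4.82, 4.90 and 5.31 with RA, against 7.19, 7.57 and 7.45 without RA. Every array with RA lay at least 1.87 log2 units below every array without RA of the same construct. The log2 change was -2.33 ± 0.18 in shLOXL2 and -2.39 ± 0.18 in shCT, which left 19.9% and 19.0% of the day 0 signal.

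Dnah8 had a smaller estimated fall in shLOXL2 than in shCT cells, and lower signals there without RA. Its log2 signals were 6.04, 5.71 and 5.54 in shLOXL2 cells with RA, against 7.43, 7.22 and 7.31 without RA. In shCT cells they were 5.82, 5.75 and 6.26 with RA, against 8.01, 7.81 and 8.23 without RA. The groups with RA overlapped between the constructs, while those without RA did not. The log2 change was -1.56 ± 0.17 in shLOXL2 (rank 15 from the largest fall) and -2.08 ± 0.17 in shCT (rank 7), leaving 34.0% and 23.7% of the signal.

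Hmces held rank 8 from the largest fall in each construct. Its log2 signals were 5.66, 6.24 and 5.95 in shLOXL2 cells with RA, against 7.66, 7.94 and 7.83 without RA. In shCT cells they were 6.10, 5.94 and 5.85 with RA, against 8.06, 7.99 and 7.73 without RA. The log2 change was -1.86 ± 0.16 in shLOXL2 and -1.96 ± 0.16 in shCT, leaving 27.6% and 25.7%. For all 4 genes the arrays with RA lay wholly below those without RA in both constructs, as was so for 9.32% of all genes in shLOXL2 and 10.5% in shCT; the genes were chosen on this contrast, so nothing is read from that count. Without the 4 arrays set apart above, the changes were -3.53, -2.40, -1.64 and -1.79 in shLOXL2, and -2.55, -2.52, -2.13 and -2.0 in shCT, in the order Klk1, Slc27a2, Dnah8 and Hmces.

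**Figure D1:**
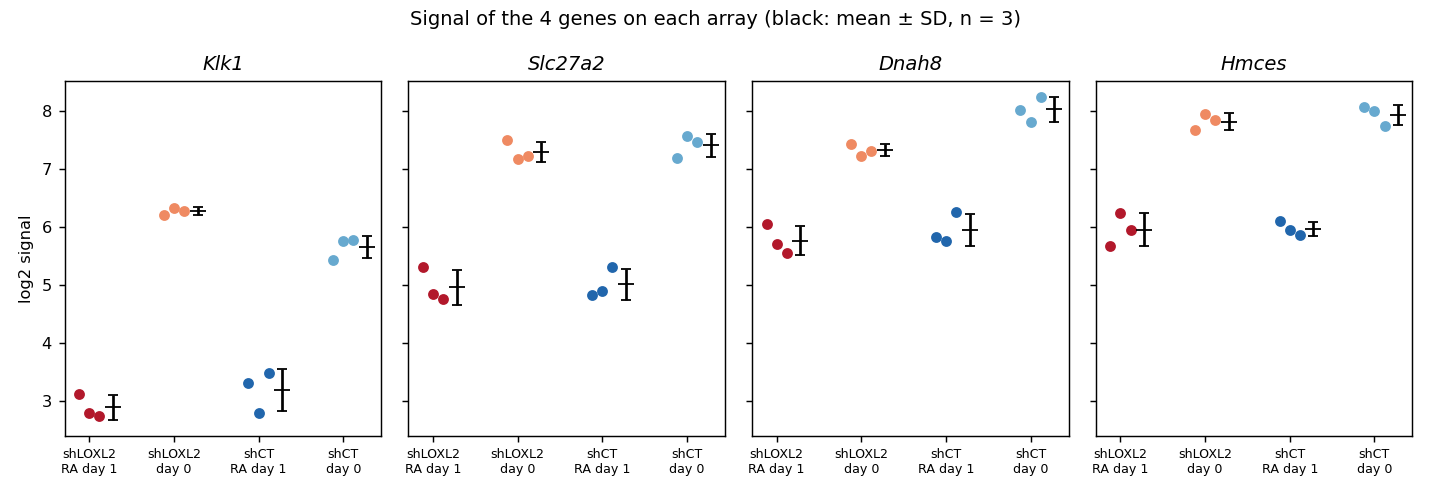
Log2 signal (y axis) of Klk1, Slc27a2, Dnah8 and Hmces on each of the 12 arrays, by group (x axis); coloured points are arrays and black bars are the mean ± SD of 3 arrays. In each panel the arrays with RA at day 1 lie below those at day 0, and for Dnah8 the shCT arrays at day 0 (7.81 to 8.23) lie above the shLOXL2 arrays at day 0 (7.22 to 7.43).

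A second transcript cluster annotated to the same gene was available for Slc27a2 and Hmces, and it did not show the same fall. In cluster 17468698 of Hmces the log2 signals were 5.95, 6.10 and 6.06 in shLOXL2 cells with RA, against 6.09, 6.02 and 6.14 without RA. In shCT cells they were 5.87, 6.43 and 5.93 with RA, against 6.30, 6.45 and 6.04 without RA. The groups overlapped in both constructs, and the means differed by -0.05 in shLOXL2 and -0.19 in shCT. In cluster 17391089 of Slc27a2 the signals were 3.97, 4.49 and 4.14 in shLOXL2 cells with RA, against 4.53, 4.42 and 4.59 without RA, a difference of means of -0.31 with overlapping groups. In shCT cells that cluster read 4.0, 4.19 and 3.97 with RA, against 4.63, 4.53 and 4.41 without RA, a difference of -0.47 without overlap. The falls given above are those of the brighter cluster. Averaging both clusters gave -1.32 in shLOXL2 and -1.43 in shCT for Slc27a2, and -0.95 and -1.08 for Hmces. Which exons or strand each cluster covers is not given in the sources used here.

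**Figure D2:**
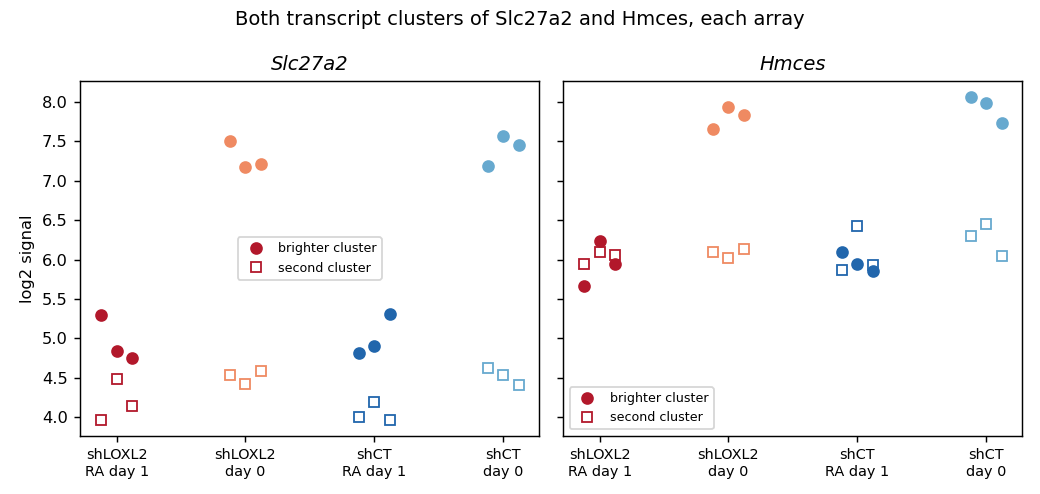
Log2 signal (y axis) of both transcript clusters of Slc27a2 and of Hmces on each array, by group (x axis); filled circles are the brighter cluster and open squares the second one. The second Hmces cluster stays between 5.87 and 6.45 in all groups, while the brighter one lies at 7.66 to 8.06 at day 0 and at 5.66 to 6.24 with RA.

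The knockdown was compared next, with and without RA, to ask whether these genes depended on LOXL2. With RA the 4 genes lay close together between the constructs. The shLOXL2 minus shCT difference was -0.30 ± 0.18 for Klk1, -0.05 ± 0.18 for Slc27a2, -0.18 ± 0.17 for Dnah8 and -0.01 ± 0.16 for Hmces, with limma adjusted p-values of at least 0.972, and the groups of all 4 overlapped, whereas 12.5% of all genes had groups that did not overlap in this comparison. In that comparison limma called 0 of 22180 genes (0%), and 1100 had an unadjusted p under 0.05.

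Without RA, 2 of the 4 genes differed between constructs by more than the spread of the arrays, in opposite directions, and neither passed the adjusted threshold. Dnah8 averaged 7.32 ± 0.109 in shLOXL2 and 8.02 ± 0.209 in shCT cells (SD, n = 3 each), a log2 difference of -0.70 ± 0.17 (SE), so the shLOXL2 signal was 61.6% of the shCT signal (limma adjusted p = 0.588, unadjusted p = 0.00122). Klk1 averaged 6.27 ± 0.0615 in shLOXL2 and 5.65 ± 0.191 in shCT cells, a difference of 0.61 ± 0.18, or 153% of the shCT signal (limma adjusted p = 0.757, unadjusted p = 0.00403). The 3 arrays of one construct lay wholly below or above those of the other for both genes, which held for 8.23% of all genes. Slc27a2 differed by -0.11 ± 0.18 and Hmces by -0.12 ± 0.16, both with overlapping groups and a limma adjusted p of 1. Limma called 0 of 22180 genes (0%) for knockdown without RA, and 1037 had an unadjusted p under 0.05. The day 0 arrays also entered the RA changes by which the genes were chosen. The knockdown difference without RA was itself among the values named when the 4 genes were set out. Its p-values, and those given below for the 4 genes from the day 0 arrays, are therefore not independent of that choice and serve as description.

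Averaged over both RA states, the knockdown difference was -0.44 ± 0.12 for Dnah8, whose shLOXL2 signal was 73.8% of shCT. Exact relabelling of the constructs within RA states gave a two-sided p of 0.025 for it over 400 relabellings, while the limma adjusted p over all genes was 0.334. The relabelling treats arrays of the same construct and number at day 0 and day 1 as independent. Their deviations from group means correlated at 0.22 to 0.56 in shLOXL2 and at 0.04 to 0.63 in shCT. With such pairs as the units, 3 against 3, no exact two-sided p below 0.1 could be had, and with them as a random block in limma the adjusted p was 0.741. The average was 0.15 ± 0.12 for Klk1 (exact p = 0.435), -0.08 ± 0.13 for Slc27a2 (exact p = 0.525) and -0.06 ± 0.11 for Hmces (exact p = 0.555). Of all genes, 0.0541% passed the limma threshold in this comparison, and none of the 4 did. A split of 3 arrays against 3 within a single RA state cannot give an exact two-sided p below 0.1.

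The RA changes of the constructs were then set against each other. The change in shLOXL2 minus that in shCT was -0.92 ± 0.25 log2 units for Klk1, 0.52 ± 0.24 for Dnah8, 0.06 ± 0.26 for Slc27a2 and 0.10 ± 0.22 for Hmces (SE). None passed the threshold: the limma adjusted p was 1 for each of the 4, and no gene of 22180 passed (0%, with 652 at an unadjusted p under 0.05). For Klk1 the difference was the sum of a higher start (0.61) and a lower end (-0.30) in shLOXL2 cells, and for Dnah8 the shLOXL2 arrays lay lower at the start (-0.70) and, by less, at the end (-0.18). At that end the Klk1 groups overlapped and lay between percentiles 9.7 and 22.4, where part of a signal can be background. Both RA changes had entered the choice of the genes. Leaving out single arrays moved the difference for Klk1 between -1.12 and -0.77 and that for Dnah8 between 0.38 and 0.68.

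**Figure D3:**
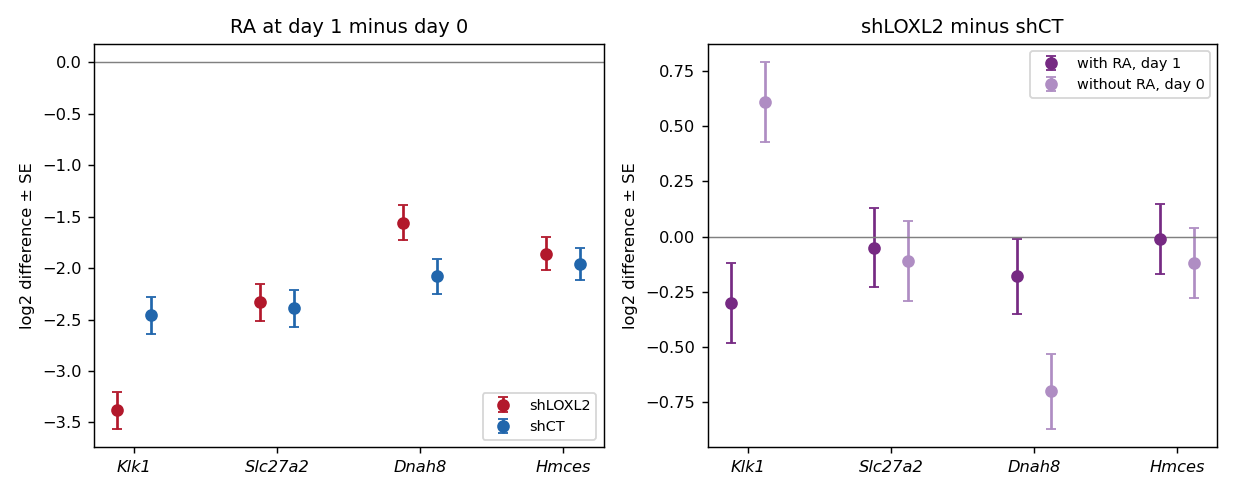
Left, log2 difference between RA at day 1 and day 0 (y axis) for each gene (x axis) in shLOXL2 and shCT cells; right, log2 difference between shLOXL2 and shCT cells with and without RA; points are estimates of the limma fit and bars their SE. The constructs part most for Klk1 (-3.38 in shLOXL2 and -2.46 in shCT), and without RA Klk1 lies above 0 (0.61) and Dnah8 below it (-0.70).

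The genomic neighbours of each gene were read by a fixed rule, the 2 nearest measured genes on each side, 16 in all. A neighbour of Dnah8, the long noncoding RNA gene 1700097N02Rik, fell with it. Its log2 signals were 7.07, 6.48 and 6.71 in shLOXL2 cells with RA, against 8.66, 8.71 and 8.73 without RA. In shCT cells they were 6.56, 6.94 and 6.96 with RA, against 9.07, 9.01 and 8.86 without RA. It fell by 1.94 ± 0.16 in shLOXL2 (limma adjusted p = 1.28e-05) and by 2.16 ± 0.16 in shCT (limma adjusted p = 3.72e-06), and held rank 5 from the largest fall in each. The groups with and without RA did not overlap, and the call held under all 21 alternatives in both constructs. As printed above, it starts on the opposite strand 31 bases from the start of Dnah8, and their start windows share 130 bases. None of the other neighbours shared a start window with the gene beside it. Of all 22179 other genes, 1700097N02Rik had the profile closest to that of Dnah8, with a root mean square difference of 0.27 log2 units over the 12 arrays after each gene was centred on its mean. The knockdown difference of 1700097N02Rik was -0.07 ± 0.16 with RA and -0.28 ± 0.16 without RA, not past the threshold (limma adjusted p = 0.996 and 1).

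The other 15 neighbours changed by -0.44 to 0.29 in shLOXL2 and by -0.69 to 0.57 in shCT cells. In shLOXL2 cells 1 of 16 neighbours passed the threshold, against 3.46% of all genes, and their median change was -0.03, against -0.01 over all genes. In shCT cells 3 of 16 passed, all downward, against 4.25% of all genes in both directions and 2.09% downward, with a median of -0.04 against 0.00. Besides 1700097N02Rik these were Dtwd1 near Slc27a2 (-0.69 ± 0.18, limma adjusted p = 0.0468) and 2410002F23Rik near Klk1 (-0.47 ± 0.12, limma adjusted p = 0.038). Those 2 calls were weak: each was lost when any 1 shCT array was left out, with adjusted p-values of up to 0.192 and 0.16. Without the 4 arrays set apart, the adjusted p was 0.104 for Dtwd1 and 0.0702 for 2410002F23Rik. Dtwd1 also lost it without replicate 3 of shLOXL2 without RA or replicates 1 and 3 with RA, and 2410002F23Rik without replicate 2 of shLOXL2 without RA or replicates 2 and 3 with RA. Copg1, a coat protein gene beside Hmces, changed by -0.12 ± 0.15 in shLOXL2 and -0.03 ± 0.15 in shCT, and Hdc, the histidine decarboxylase gene beside Slc27a2, by 0.24 ± 0.18 and 0.20 ± 0.18. The linker histone gene H1f10 on the other side of Hmces stood at 0.29 ± 0.17 and 0.57 ± 0.17, neither past the threshold.

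**Figure D4:**
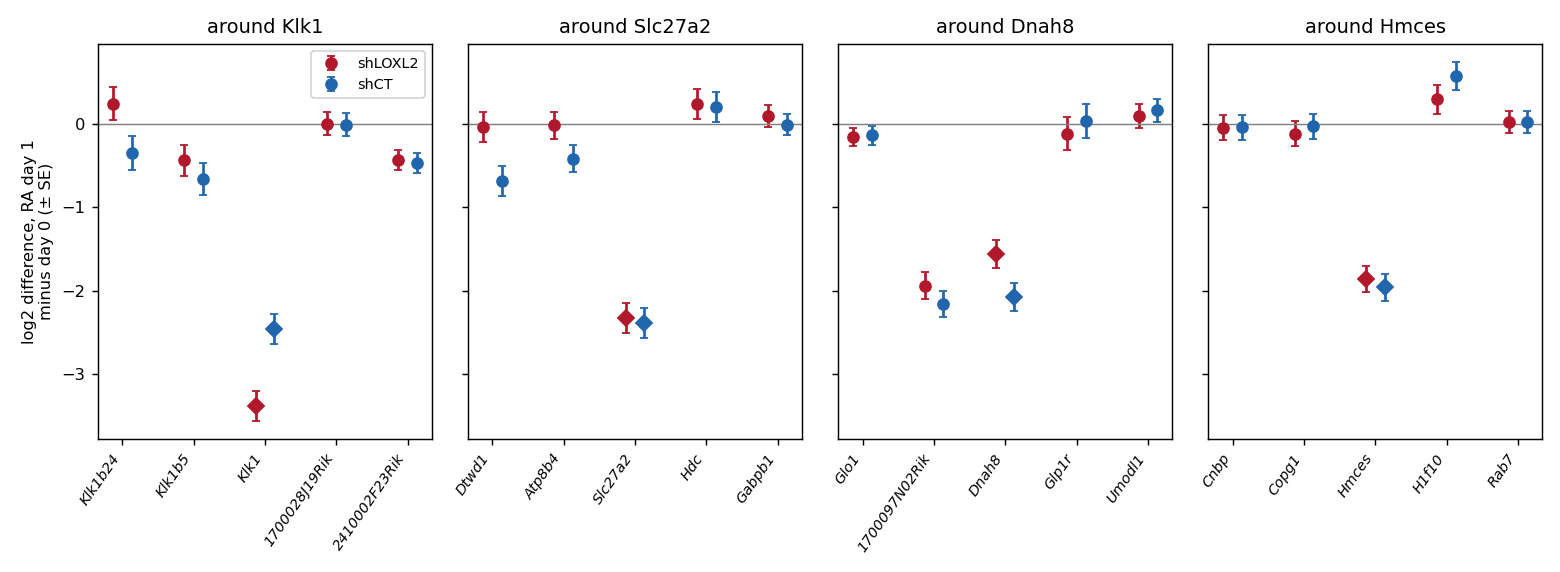
Log2 difference between RA at day 1 and day 0 (y axis, ± SE) for Klk1, Slc27a2, Dnah8 and Hmces (diamonds) and for the 2 nearest measured genes on each side in chromosomal order (circles), in shLOXL2 and shCT cells; the x axis gives gene order, not distance. The noncoding gene 1700097N02Rik lies at -1.94 in shLOXL2 and -2.16 in shCT beside Dnah8, while the other 15 neighbours lie between -0.69 and 0.57.

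The gene families of the 4 genes were then read, to see whether relatives moved too. Among kallikreins, the 10 measured Klk1b genes held no called change in either construct (limma, with 2 at an unadjusted p under 0.05 in shLOXL2 and 1 in shCT). Their changes ran from -0.49 to 0.44 in shLOXL2 and from -0.66 to 0.10 in shCT. The lowest in shCT was Klk1b5, the gene next to Klk1, at -0.66 ± 0.19 (limma adjusted p = 0.0721), and it was called there (limma adjusted p = 0.0159) with arrays of the same construct and number as a random block. The main fit paired no arrays, while the random block paired arrays by number within both constructs. Whether signal shared with Klk1 entered the values of Klk1b5 and the other Klk1b genes was not tested. Of the 12 other numbered kallikreins, Klk10 was called, in shLOXL2 cells. Its log2 signals were 4.93, 5.07 and 4.91 in shLOXL2 cells with RA, against 5.68, 5.67 and 5.66 without RA, a fall of 0.70 ± 0.12 (limma adjusted p = 0.00382). In shCT cells it stood at -0.27 ± 0.12 (limma adjusted p = 0.266), and no gene passed the test of a difference between the constructs given above.

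The kinin system around Klk1 was read as a list of 29 measured genes besides Klk1, which also held those kallikreins. In shLOXL2 cells 2 rose and 1 fell, and in shCT cells 1 rose and none fell, beside 2.05% of all genes called upward and 1.41% downward in shLOXL2, and 2.16% upward and 2.09% downward in shCT. Cpm, a membrane carboxypeptidase that trims kinins, rose by 0.90 ± 0.13 in shLOXL2 (limma adjusted p = 0.00117) and by 0.75 ± 0.13 in shCT (limma adjusted p = 0.00405). Without the 4 arrays set apart, the shCT change of Cpm was 0.64 with an adjusted p of 0.0581. Cpn1, the plasma carboxypeptidase N, rose by 0.76 ± 0.19 in shLOXL2, barely past the threshold (limma adjusted p = 0.0471), and leaving out 1 array ended this call in 9 of 12 cases, with adjusted p-values of up to 0.186. The arrays concerned were replicates 2 and 3 of shCT without RA, all 3 of shCT with RA, replicates 1 and 2 of shLOXL2 without RA and replicates 2 and 3 with RA. The Cpn1 call also ended without the 4 arrays set apart (adjusted p = 0.0665), with the replicate number as a block (0.0782), centring of arrays on their medians (0.0568), a second quantile normalization (0.0804) and only the groups compared (0.118). With the random block, the shCT list gained Klk1b5 and Cpn1 (0.72 ± 0.15, limma adjusted p = 0.00705). For the RA change averaged over both constructs, the main fit called Cpm (0.82) and Cpn1 upward and Klk10 and Klk1b5 (-0.55) downward. The share of all genes called on that average is not given here. The median change of the list was -0.02 in shLOXL2 and -0.03 in shCT, against -0.01 and 0.00 over all genes.

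Relatives of Slc27a2 did not pass the threshold. Slc27a1, Slc27a3, Slc27a4, Slc27a5 and Slc27a6, the other fatty acid transport proteins, changed by -0.35 to 0.10 in shLOXL2 and by -0.18 to 0.29 in shCT (limma called 0 of 5 in each, with 1 and 0 at an unadjusted p under 0.05). In a list of 27 measured genes of fatty acid uptake, activation and peroxisomal oxidation, 1 fell in each construct and none rose, beside 1.41% of all genes called downward in shLOXL2 and 2.09% in shCT, so the count lay near the share over all genes. It was Acsl5, a long-chain acyl-CoA synthetase, with log2 signals of 5.17, 4.82 and 4.75 in shLOXL2 cells with RA, against 5.79, 5.75 and 5.75 without RA. In shCT cells Acsl5 had 4.78, 5.02 and 5.23 with RA, against 5.89, 6.11 and 5.79 without RA. It fell by 0.85 ± 0.15 in shLOXL2 (limma adjusted p = 0.00546) and by 0.92 ± 0.15 in shCT (limma adjusted p = 0.00305), without overlap of the groups. The list's median change was 0.01 in shLOXL2 and 0.06 in shCT, against -0.01 and 0.00 over all genes. With the random block, Acsl4, another long-chain acyl-CoA synthetase, was called upward in shCT (0.89 ± 0.26, limma adjusted p = 0.0495). For the RA change averaged over both constructs, the main fit called Acsl4 upward (0.85) and Acsl5 (-0.89) and Fabp5 downward. The share of all genes called on that average is not given here.

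No other axonemal dynein heavy chain changed beyond the threshold. The 10 other Dnah genes measured lay between -0.25 and 0.28 in shLOXL2 and between -0.24 and 0.26 in shCT cells, and none had an unadjusted p under 0.05 in either construct (limma). Of 29 measured genes of dynein chains and ciliary regulators besides Dnah8, 1 fell in each construct, near the 1.41% of all genes called downward in shLOXL2 and 2.09% in shCT. The list's median change was 0.01 in shLOXL2 and 0.05 in shCT. The called gene was Rfx2, a transcription factor of ciliary and spermatogenic genes, with 7.46, 7.75 and 7.77 in shLOXL2 cells with RA, against 8.26, 8.39 and 8.57 without RA. In shCT cells it had 7.22, 7.29 and 7.58 with RA, against 7.96, 7.99 and 8.01 without RA. It fell by 0.75 ± 0.14 in shLOXL2 (limma adjusted p = 0.00691) and by 0.62 ± 0.14 in shCT (limma adjusted p = 0.0209). The shCT call was lost without replicate 2 or 3 of shCT without RA (adjusted p = 0.0794 and 0.0519) and without replicate 1 or 2 of shCT with RA (0.102 and 0.0904). With the random block, 2 genes of the list were called in shLOXL2, the second being Ccdc40, a ciliary assembly factor (-0.34 ± 0.10, limma adjusted p = 0.0492). Foxj1, the master regulator of motile cilia, averaged 4.32 with and 4.78 without RA in shLOXL2 cells, and 4.86 with and 4.69 without RA in shCT cells. The mean of 5 markers of multiciliated cells was 4.80 to 5.07 with and 5.11 to 5.25 without RA in shLOXL2 cells, and 5.06 to 5.28 with and 5.02 to 5.18 without RA in shCT cells, and its part in the Dnah8 values was not tested.

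The repair pathways around Hmces were read as a list of 29 measured genes of abasic site handling and base excision repair. Of these limma called 0 in each construct, beside 3.46% of all genes in shLOXL2 and 4.25% in shCT. An unadjusted p under 0.05 was found for 4 of them in shLOXL2 and 5 in shCT, against 3188 and 3657 of all 22180 genes, so these counts do not set the list apart. Their median change was -0.01 in shLOXL2 and -0.13 in shCT, against -0.01 and 0.00 over all genes. The smallest p-values belonged to the glycosylase gene Neil2 in shLOXL2 (-0.43 ± 0.14, limma adjusted p = 0.144) and to Parp2, a sensor of DNA strand breaks, in shCT (-0.35 ± 0.12, limma adjusted p = 0.138). With the random block, 1 gene was called in each construct, the glycosylase gene Neil3 upward in shLOXL2 (0.59 ± 0.16, limma adjusted p = 0.0428) and Parp2 downward in shCT (limma adjusted p = 0.0482). For the RA change averaged over both constructs, the main fit called Neil3 upward (0.55) and Mutyh (-0.41) and Parp1 downward. The share of all genes called on that average is not given here.

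**Figure D5:**
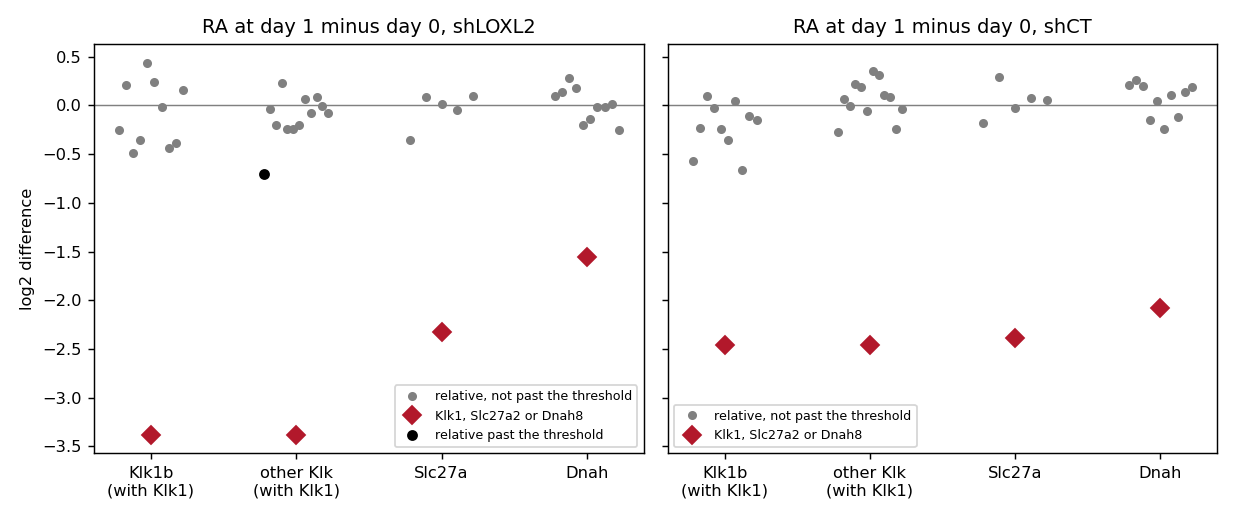
Log2 difference between RA at day 1 and day 0 (y axis) for relatives in 4 gene families (x axis), in shLOXL2 (left) and shCT cells (right); red diamonds are Klk1, Slc27a2 and Dnah8, grey points relatives that did not pass a limma adjusted p of 0.05 and the black point one that did. Klk10 (-0.70 in shLOXL2) is that relative, and all other relatives lie between -0.66 and 0.44.

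The genes with the profiles most like those of the 4 were found by the root mean square difference over the 12 arrays, with each gene centred on its mean and predicted or numbered symbols left out. As the arrays with and without RA lie apart for these genes, the measure is mostly one of equal RA changes, and it says nothing of shared control. Hmces had the closest matches, Ddx58, an RNA sensor of innate immunity (0.16 log2 units), Foxd3, a forkhead factor of pluripotent cells (0.18), and Slc7a3, a cationic amino acid transporter (0.27). Ddx58 changed by -1.79 ± 0.12 in shLOXL2 and -1.91 ± 0.12 in shCT. Slc27a2 was closest to Lef1, an effector of Wnt signalling (0.32), Mycn (0.34) and Ddx58 (0.36). For Dnah8, after the noncoding gene given above, these were Esrp1, an epithelial splicing regulator (0.30), Grhl2, an epithelial transcription factor (0.31), and Egr1, an immediate early gene (0.32). Without RA, Egr1 averaged 6.77 in shLOXL2 cells, against 7.76 in shCT cells, a difference of -0.98 ± 0.15 (limma adjusted p = 0.167). Klk1 had no match as close: Slc27a2 came nearest at 0.42, followed by Mycn (0.60) and Ddx58 (0.63). Among the 4 genes, Slc27a2 and Dnah8 were the closest pair (0.37) and Klk1 and Dnah8 the farthest (0.74). Within groups the arrays scattered around their mean by 0.231 log2 units for Klk1, 0.239 for Slc27a2, 0.22 for Dnah8 and 0.192 for Hmces (SD), near the median of 0.199 over all genes.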

How the data were processed

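RNA had been extracted with Trizol, and 100 ng per sample was labelled by an Affymetrix whole-transcript assay, per the labels' protocols. The authors deposited log2 signals per transcript cluster, which range from 0.567 to 13.8. Per the submitters' processing notes, which give neither role nor order, the tools included RMA, limma and R 3.1.1. No scanner files were used here, so background correction could not be varied. Normalization between arrays removes shifts shared by most genes.

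Clusters were named through the platform annotation, updated by gene identifier through RefSeq of GRCm38.p6: 23521 of 41345 had 1 gene (23328 matched there), 1814 several and 16010 none, and only the first kind was used. A gene with several clusters was represented by the brightest. Limma 3.58.1 in R 4.3.3 (statmod 1.5.0) fitted 1 mean per group over all 12 arrays. P-values were adjusted over 22180 genes by Benjamini-Hochberg with a threshold of 0.05. The fit was tested on simulated data with independent noise for each gene and array. That test does not cover variation shared between arrays.

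The 4 genes, the gene lists and the tests were chosen with earlier results of these data known. The rule for named genes took the 4 genes, per list and construct up to 3 called genes with the smallest p or else the single smallest, the 3 closest profiles per gene, the 2 nearest measured genes on each side, family members and Loxl2. Members are left out of list counts. Of the listed genes, 4, 4, 6 and 5 (kinin, fatty acid, dynein and repair lists) had no cluster of their own here. Samples share replicate numbers. Deviations from group means of arrays with the same construct and number correlated at 0.56, 0.25 and 0.22 in shLOXL2 and at 0.36, 0.04 and 0.63 in shCT. These values were positive in both constructs and did not set either apart. The main fit paired no arrays, and the random block paired those of the same number within each construct.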

Additional observations from a re-analysis of the deposited data

How the results depend on the processing

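The falls of the 4 genes with RA stayed below 0 in all 166 combinations of gene, construct and alternative, and moved by less than the spread between replicates in 162. The exceptions were the averages of both clusters, -1.32 in shLOXL2 and -1.43 in shCT for Slc27a2 and -0.95 and -1.08 for Hmces. Centring arrays on their medians shifted the median of all genes by -0.10 for RA in shCT. With single arrays left out, the falls ran from -3.50 to -3.31 (Klk1), -2.50 to -2.22 (Slc27a2), -1.69 to -1.45 (Dnah8) and -2.0 to -1.71 (Hmces) in shLOXL2, and from -2.61 to -2.26, -2.54 to -2.30, -2.23 to -1.97 and -2.06 to -1.89 in shCT. No knockdown difference of the 4 genes crossed the threshold under any alternative. Small ones changed sign: with RA, Slc27a2 stood at 0.05 with clusters averaged and from -0.22 to 0.10 with single arrays left out, and Hmces at 0.07 without the 4 arrays set apart, at 0.03 after centring and from -0.16 to 0.13 with single arrays left out. The difference of the RA changes ran from -0.11 to 0.21 for Slc27a2 and from -0.04 to 0.25 for Hmces, and the average knockdown difference of Hmces from -0.14 to 0.01, with single arrays left out.

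Counts of called list genes were small and moved easily, and the cause was not tested. The axis of variation within groups was computed from these same values. As a covariate it therefore removes part of their spread by construction. The kinin list in shCT (1 gene) gave 2 with the replicate block, centring, a second quantile normalization, dim genes left out or only the groups compared, 3 with the random block within constructs or the axis as a covariate, and 1 to 2 with single arrays left out. In shLOXL2 that list (3 genes) gave 2 to 4 over all alternatives. The fatty acid list gave 2 in shCT with the random block or the axis, and 2 in shLOXL2 with the axis. The dynein list gave 2 in shLOXL2 with the random block, and in shCT 0 with only the groups compared and 0 to 1 with single arrays left out. The repair list gave in shCT 1 with the random block, 4 with the axis and 1 after centring, and in shLOXL2 1 with the random block, 4 with the axis, 2 without the 4 arrays and 0 to 1 with single arrays left out. The replicate block, pairing arrays by number over both constructs, also ended the calls of Cpn1 in shLOXL2 (adjusted p = 0.0782) and of Dtwd1 (0.0517) and 2410002F23Rik (0.0614) in shCT. The calls of Cpm, Klk10, Acsl5, Rfx2 and 1700097N02Rik held under it. Klk1 had no value with dim genes left out, and the averages and differences of RA changes none with only the groups compared.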
